A study of Mus musculus with 4 samples.

Results

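The S100 genes are a family of small calcium-binding proteins, and 9 of its mouse members, S100a1, S100a4, S100a6, S100a8, S100a9, S100a10, S100a11, S100a13 and S100a16, were followed here across the lung CD11b+Ly6g+ myeloid-derived suppressor cells (MDSCs) of 4 groups of mice. They were chosen by gene symbol, and make up 9 of the 54532 genes in the deposited table. All 9 entered the tests, which took the 16369 genes that reached 10 counts in any library, and 8 reached 10 counts in each of the 4. The exception was S100a4, which did so in the TP5 library alone.

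Each group is 1 mRNA library, made from the pooled cells of 10 to 12 C57BL/6 mice, whose age the labels give as 6 to 8 weeks. All mice, the controls included, were models of the pre-metastatic niche (PMN), the lung tissue that a distant tumor prepares before its cells settle there. They received 300 μl of MCM, medium conditioned by B16F10 mouse melanoma cells, for 10 days, and on day 7 an injection of 100000 B16F10 cells into the tail vein, and the lungs were taken on day 10. The control group had no peptide, whereas the others were given TP5, sFD17 or FR17 under the skin from day 3, all at 40 μM/kg/day. TP5 is the free immune-stimulating peptide thymopentin, FR17 is a self-assembling peptide that carries TP5 and is cut by the protease MMP2, and sFD17 is its assembling counterpart with the TP5 sequence scrambled. No library of healthy lung was analysed here, and the sorted cells of the pooled mice are 1 value per group, so that differences between libraries have no replicate error.

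The sequencing depth was 15543071 to 19638228 counts per library, and 3 counts, the limit that a count of 0 allows, correspond to 0.131 to 0.227 CPM, the unit of counts scaled to a common library size. Both sorting markers were present: Itgam, which encodes CD11b, had 5711 to 6924 counts, and Ly6g had 1234 to 2081 counts. In addition, 16 neutrophil markers summed to 20068 to 31925 CPM, against 2768 to 8499 CPM for 13 macrophage markers. CPM were scaled with TMM factors, which assume that most genes do not differ. The factors were 0.849 for sFD17 and 1.17 for FR17, and without them the median log2 ratio of all tested genes was -0.23 for sFD17 to control, 0.26 for FR17 to control and 0.52 for FR17 to sFD17, instead of -0.03, 0.02 and 0.07.

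S100 proteins sense calcium through EF-hand motifs, mostly act as dimers, and bind target proteins inside the cell or, once released, receptors on other cells. S100A8 and S100A9 form calprotectin, a heterodimer that fills much of the neutrophil cytosol, sequesters zinc and manganese, feeds arachidonic acid to the NADPH oxidase and, outside the cell, is a ligand of Toll-like receptor 4 and of the receptor RAGE. Both proteins are long-used markers of granulocytic MDSCs, and their release in the lung is known as a signal that draws myeloid cells into the PMN. S100A10 does not bind calcium and works in a complex with annexin A2, where it captures plasminogen at the cell surface, S100A11 pairs with annexin A1, S100A6 binds the ubiquitin ligase adaptor encoded by Cacybp, S100A4 binds nonmuscle myosin heavy chain, S100A13 takes part in the unconventional export of FGF1 and interleukin-1α, and S100A1 is best known from heart muscle.

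All 9 genes lie on chromosome 3 (GRCm38) in a pair of blocks. The first block holds 7 genes within 185 kb: S100a1 (chr3:90511034-90514392), S100a13 (chr3:90514435-90524581), S100a16 (chr3:90537254-90543151), S100a4 (chr3:90603771-90606045), S100a6 (chr3:90612882-90624181), S100a8 (chr3:90668978-90670035) and S100a9 (chr3:90692632-90695721). After 2.82 Mb follow S100a11 (chr3:93520488-93526287) and S100a10 (chr3:93555080-93564643), within 44.2 kb. S100a1 and S100a9 are read from the minus strand and the other 7 from the plus strand. S100a8 and S100a9 are 22.6 kb apart, whereas S100a1 and S100a13 stand head to head with only 42 bases between them.

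Promoter windows of 300 bases (250 before and 50 after the RefSeq start, GRCm38.p6) were found for 8 of the 9 genes, and 3 are shown 5′ to 3′ on the strand of the gene: those of S100a8 and S100a9, the most abundant pair, and that of S100a13, which holds the interval shared with S100a1. For S100a8 and S100a9, capitals mark matches to a C/EBP motif (TTNNGNAA), a PU.1 core (GAGGAA) and a TATA box (TATAAA), searched on both strands; for S100a13, capitals mark the 42 bases between it and S100a1.
S100a8, chr3:90668821-90669120, plus strand: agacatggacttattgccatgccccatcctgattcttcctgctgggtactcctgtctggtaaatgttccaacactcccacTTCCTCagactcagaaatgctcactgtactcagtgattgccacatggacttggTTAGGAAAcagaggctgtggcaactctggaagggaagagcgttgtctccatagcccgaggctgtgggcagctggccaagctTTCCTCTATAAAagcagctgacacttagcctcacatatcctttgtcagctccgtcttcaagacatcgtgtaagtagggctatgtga
S100a9, chr3:90695672-90695971, minus strand: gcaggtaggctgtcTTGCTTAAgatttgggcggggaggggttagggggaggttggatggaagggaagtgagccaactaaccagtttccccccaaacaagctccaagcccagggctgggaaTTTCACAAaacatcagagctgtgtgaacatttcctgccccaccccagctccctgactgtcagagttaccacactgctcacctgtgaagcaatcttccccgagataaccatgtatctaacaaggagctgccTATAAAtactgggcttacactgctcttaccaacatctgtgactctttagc
S100a13, chr3:90514185-90514484, plus strand: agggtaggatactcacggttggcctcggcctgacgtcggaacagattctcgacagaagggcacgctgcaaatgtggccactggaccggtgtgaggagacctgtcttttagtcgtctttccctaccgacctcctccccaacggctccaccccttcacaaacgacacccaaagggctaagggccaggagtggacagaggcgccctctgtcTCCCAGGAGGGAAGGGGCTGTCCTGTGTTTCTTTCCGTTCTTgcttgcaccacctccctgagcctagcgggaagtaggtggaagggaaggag
The S100a8 window held 1 C/EBP match, which begins at position -117 from the start, 2 PU.1 cores, at -170 and -36, and a TATA box at -30; the PU.1 core nearer to the start and the TATA box adjoin without overlap and print as 1 run of capitals. The S100a9 window held 2 C/EBP matches, at -236 and -130, no PU.1 core, and a TATA box that begins at the start itself. C/EBP matches were found in 40.7% of 32817 RefSeq windows of this length, PU.1 cores in 28.3% and TATA boxes in 13.6%. Among the other windows, S100a4 held a TATA box and a PU.1 core, S100a11 and S100a16 a PU.1 core, and S100a1, S100a6 and S100a13 held none of these letters. No binding was measured here, and a match is only a description of the sequence.

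The level of the S100 genes spanned orders of magnitude, and S100a9 was the most abundant gene of the whole transcriptome in every library, both by counts and per kilobase of gene length. Per kilobase, its level was 20126, 19655, 24951 and 17340 CPM/kb in the control, TP5, sFD17 and FR17 libraries. S100a8 came next, second of all genes per kilobase in every library, at 8092, 8387, 10920 and 7407 CPM/kb. These genes together took 1.59%, 1.64%, 1.75% and 1.66% of all counts in that order, and 90.0% to 91.6% of the counts of the 9 genes. The share of all 9 genes was 1.77% (95% interval 1.76 to 1.77) in the control, 1.82% (1.81 to 1.82) with TP5, 1.91% (1.90 to 1.92) with sFD17 and 1.82% (1.82 to 1.83) with FR17. All intervals given here are exact 95% binomial intervals, which cover counting error only.

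**Figure D1:**
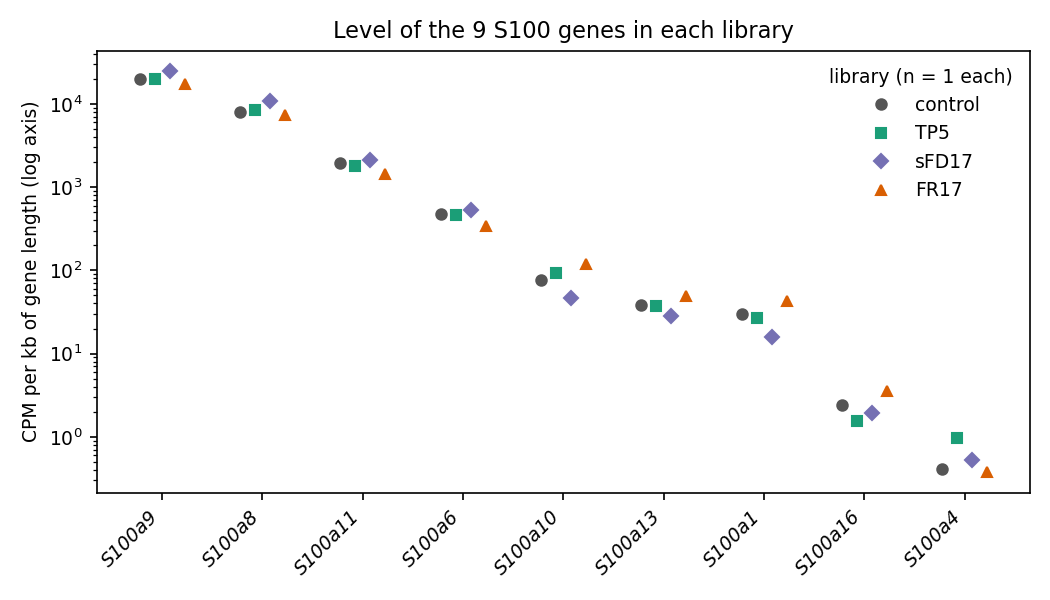
Level of each of the 9 S100 genes in CPM per kilobase of gene length (log axis), 1 point per library: control, TP5, sFD17 and FR17 (n = 1 each). The order of the genes is the same in the 4 libraries, and S100a9 stood at 17340 to 24951 CPM/kb, above all other genes.

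S100a11 (1968, 1794, 2114 and 1447 CPM/kb) and S100a6 (473, 461, 531 and 342 CPM/kb) made up the next level. S100a11 ranked 21 to 27 of all genes per kilobase, and S100a6 ranked 95 to 122. S100a10 followed at 45.9 to 118 CPM/kb, S100a13 at 28.5 to 48.7, S100a1 at 15.7 to 42.4 and S100a16 at 1.55 to 3.53 CPM/kb, and S100a4 was barely detected at 0.373 to 0.976 CPM/kb. From S100a9 down to S100a10 the ranges of neighbouring genes over the 4 libraries did not overlap, nor did those of S100a1, S100a16 and S100a4. The range of S100a13 overlapped that of S100a10 at its upper end and that of S100a1 at its lower end. Within each single library, however, the order of the 9 genes was the same.

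The libraries were compared to ask how the peptides changed the MDSC transcriptome of the PMN lung, and with TMM scaling no S100 gene passed either rule for a call against the control. Of the 9 genes, 0 were at least 2-fold apart from control in the TP5, the sFD17 or the FR17 library, where 8.18%, 11.8% and 7.5% of all tested genes were. By edgeR's exact test, which compares the libraries and not the conditions, 0 of 9 passed an unadjusted p of 0.05 in each of these comparisons, against 1.98%, 4.83% and 1.88% of all tested genes. With library size alone, 1 gene was past 2-fold with TP5 and 1 with sFD17, and the exact test called 1 with sFD17, as it did with a fixed coefficient of variation of 0.2. The median log2 ratio of the 9 genes to control was -0.03 (TP5), 0.10 (sFD17) and -0.08 (FR17), beside 0.00, -0.03 and 0.02 for all tested genes, and library size alone turned it to 0.02, -0.11 and 0.12. Those medians hide genes of opposite sign: without S100a8 and S100a9 they were -0.04, -0.30 and 0.37. In terms of size alone, the median absolute log2 ratio was 0.13, 0.31 and 0.44 for the S100 genes and 0.24, 0.34 and 0.30 for all tested genes.

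The largest differences lay between FR17 and sFD17, the peptides that share the assembling carrier and differ in the TP5 sequence. S100a10 and S100a1 were at least 2-fold higher with FR17 than with sFD17, and no S100 gene was at least 2-fold lower; 22.1% of all tested genes were at least 2-fold apart in this comparison, 11.3% being higher and 10.8% lower with FR17, or 25.7% and 4.78% with library size alone. The same 2 genes passed the exact test, with 12.7% of all tested genes (5.66% higher). Neither passed after Benjamini-Hochberg adjustment over all 16369 genes or with a fixed coefficient of variation of 0.4. Between FR17 and TP5, S100a16 was more than 2-fold higher and S100a4 more than 2-fold lower (9.92% of all genes at least 2-fold apart, 7.04% higher and 2.88% lower), and 0 of 9 passed the exact test (3.67%). Between sFD17 and TP5, 1 gene, S100a10, was at least 2-fold lower with sFD17 (12.4% of all genes at least 2-fold apart, 5.64% lower) and passed the exact test (4.64%; 1.77% lower). It was no longer 2-fold apart with DESeq2 size factors, and no longer called by DESeq2's Wald test, with a fixed coefficient of variation of 0.4 or after Benjamini-Hochberg adjustment.

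Apart from S100a4, which had 4 to 10 counts, the genes fell into an abundant set, S100a8, S100a9, S100a11 and S100a6, with the highest TMM-scaled level in sFD17 and the lowest in FR17 (with library size alone the control was the lowest for S100a8 and S100a9 and the highest for S100a11, and TP5 the highest for S100a6), and a scarcer set, S100a10, S100a13, S100a1 and S100a16, with the highest level in FR17. The ratio of the highest to the lowest library was 1.44 to 1.55 in the abundant set and 1.71 to 2.70 in the scarcer one. The median log2 ratio of FR17 to sFD17 over the 9 genes was -0.33, beside 0.07 for all tested genes, but -0.01 with library size alone, 0.13 without S100a4 and 0.77 without S100a8 and S100a9. The sets were described after their values were seen.

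**Figure D2:**
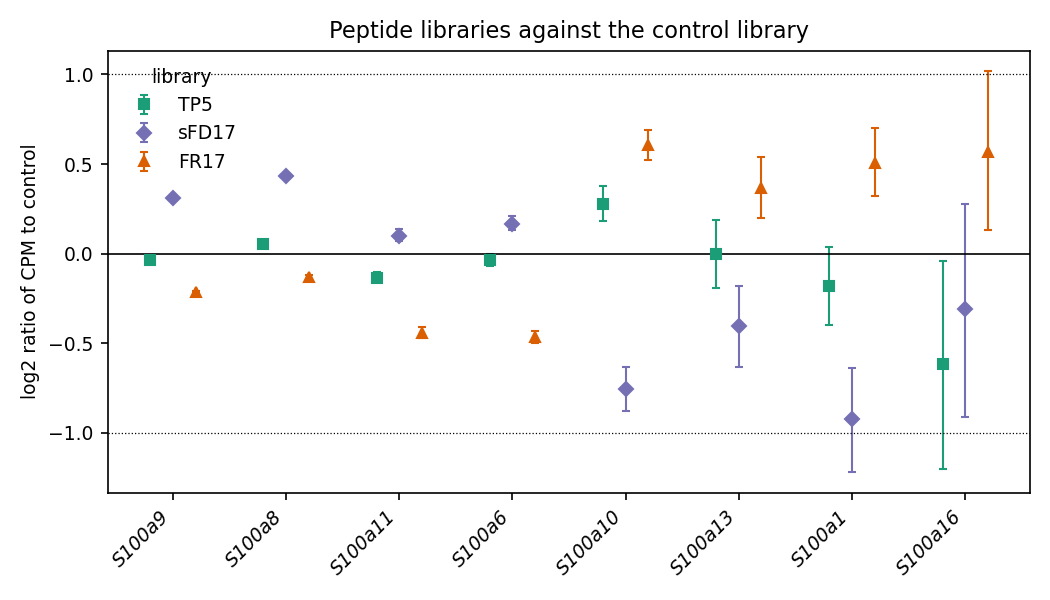
Log2 ratio of CPM to the control library for 8 S100 genes (S100a4 left out for its low counts) in the TP5, sFD17 and FR17 libraries; bars are exact 95% intervals of counting error, and dotted lines mark 2-fold. No point lies past 2-fold; with TMM scaling sFD17 is above and FR17 below control for S100a9, S100a8, S100a11 and S100a6, but with library size alone S100a6 and S100a11 lie below control in sFD17 (-0.05 and -0.11) and S100a8 and S100a9 lie above it in FR17 (0.12 and 0.03).

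S100a9 (ENSMUSG00000056071) had 177455, 179972, 171891 and 207783 counts in the control, TP5, sFD17 and FR17 libraries, or 10506, 10260, 13024 and 9052 CPM. The sFD17 library was the highest and FR17 the lowest on this scale, and TP5 and the control lay close together (log2 ratio -0.03). The log2 ratio to control was 0.31 with sFD17 (0.09 with library size alone) and -0.21 with FR17, where library size alone turned it to 0.03. FR17 was 0.695-fold of sFD17 (95% interval 0.691 to 0.699), but the exact test did not call the gene in any comparison (unadjusted p 0.348 to 0.951).

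S100a8 (ENSMUSG00000056054) moved with S100a9, at 94860, 102100, 100021 and 117996 counts and 5616, 5821, 7579 and 5140 CPM. Again sFD17 was the highest library and FR17 the lowest on this scale. The log2 ratio to control was 0.43 with sFD17 (0.22 with library size alone) and -0.13 with FR17, which library size alone turned to 0.12, and FR17 against sFD17 was -0.56 (-0.10 with library size alone). The exact test gave unadjusted p of 0.314 to 0.926 over the 6 pairs.

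The balance of the calprotectin subunits does not depend on scaling between libraries. S100a8 had 0.535 counts per count of S100a9 in the control (0.530 to 0.539), 0.567 with TP5 (0.563 to 0.572), 0.582 with sFD17 (0.577 to 0.586) and 0.568 with FR17 (0.564 to 0.572). The ratio was thus lowest in the control, and TP5 and FR17 could not be told apart within counting error. Against Csf3r, the receptor for G-CSF and a neutrophil gene, S100a9 had 2.12, 2.87, 2.19 and 3.76 counts per Csf3r count in control, TP5, sFD17 and FR17. Here the control and sFD17 were close together and TP5 and FR17 stood higher. Csf3r itself had 83644, 62645, 78491 and 55305 counts, and its log2 ratio of FR17 to control was -1.04 where that of S100a9 was -0.21 (-0.79 and 0.03 with library size alone). Both genes mark neutrophils, but the gap between FR17 and control was smaller for S100a9 than for Csf3r. In such bulk samples, fewer cells of a type and less RNA per cell cannot be told apart.

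**Figure D3:**
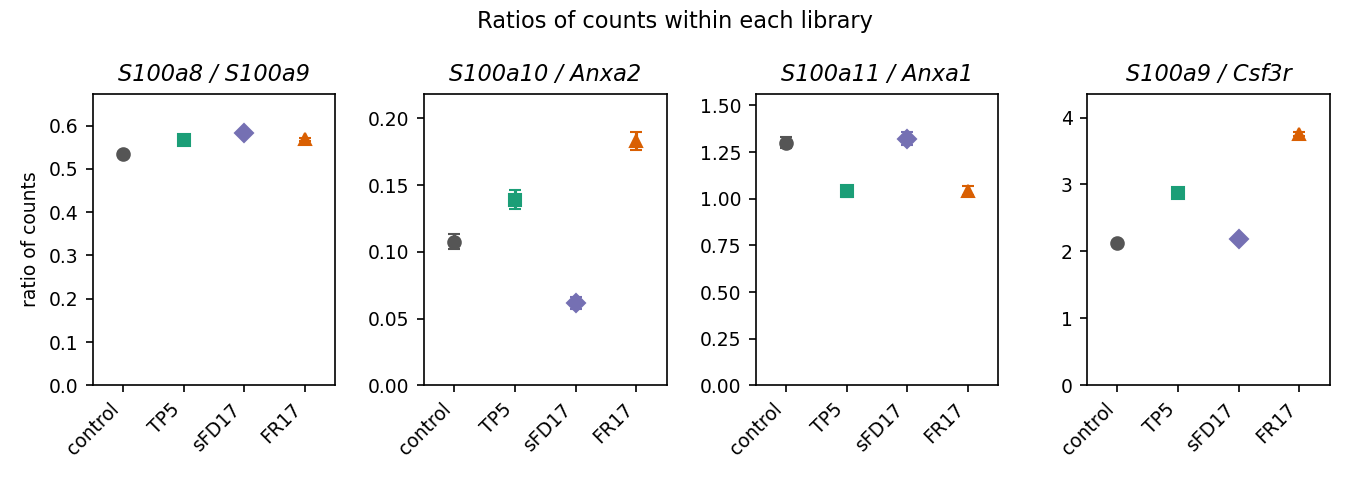
Ratio of counts of 2 genes within each library (linear axes from 0) for S100a8 to S100a9, S100a10 to Anxa2, S100a11 to Anxa1 and S100a9 to Csf3r, 1 point per library with its exact 95% interval of counting error. S100a8 to S100a9 spans 0.535 to 0.582, whereas S100a10 to Anxa2 spans 0.0616 in sFD17 to 0.183 in FR17.

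The receptors through which released calprotectin acts, and their adaptors, were measured as a list of 9 genes. Against control, 0 of 9 were at least 2-fold apart with TP5, sFD17 or FR17 (8.18%, 11.8% and 7.5% of all tested genes). Their median log2 ratio was -0.15, 0.27 and -0.27, beside 0.00, -0.03 and 0.02 for all tested genes. With library size alone it was -0.10, 0.05 and -0.02, beside 0.05, -0.23 and 0.26. Between FR17 and sFD17, 2 of 9 were at least 2-fold lower with FR17 (10.8% of all tested genes), and 0 with library size alone. Cd14, the co-receptor that hands ligands to Toll-like receptor 4, had 48376, 40367, 65539 and 42749 counts in control, TP5, sFD17 and FR17. It was highest with sFD17, with a log2 ratio of -1.42 for FR17 against sFD17, or -0.95 with library size alone. For sFD17 against TP5 the ratio of Cd14 was 1.11, or 0.84 with library size alone. With TMM scaling it was the only 1 of 9 past 2-fold in that pair. The exact test called Cd14 in the first pair with either scaling, but in the second with TMM scaling only. Myd88, the adaptor of Toll-like receptors, was likewise lower with FR17 than with sFD17, at -1.06, or -0.60 with library size alone. The exact test called Myd88 in this pair with TMM scaling only. Tlr4 itself had 784 to 1126 counts and Ager, which encodes RAGE, 222 to 286 counts, and neither was 2-fold apart in any pair. In this list and the others below, all genes but Anxa1, Anxa2, Anxa4, Serpinb2, Mpo and Elane were picked after their values were seen.

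Among 7 regulators known to act on S100a8 and S100a9, 0 were at least 2-fold apart from control with TP5, sFD17 or FR17 (8.18%, 11.8% and 7.5% of all tested genes). Their median log2 ratio was -0.26, 0.19 and -0.42, or -0.21, -0.03 and -0.18 with library size alone. With library size alone, 1 of 7, Cebpa, was at least 2-fold lower with sFD17 than in the control (-1.17, where 9.37% of all tested genes were lower). Between FR17 and sFD17, 1 of 7 was at least 2-fold lower with FR17 (10.8% of all tested genes) and 0 higher (11.3%). With library size alone 0 were lower (4.78%) and 1 was higher (25.7%), Cebpa at 1.42, or 0.96 with TMM scaling. Cebpe, a C/EBP factor of late granulocyte maturation, passed the exact test with sFD17 at a log2 ratio to control of 0.90. With library size alone the ratio was 0.68 and did not pass. Stat3, the transcription factor downstream of interleukin-6 and G-CSF, was lower with FR17 than with sFD17 by the exact test, at -1.29. With library size alone its ratio was -0.83, and the exact test did not call it. Cebpb, a C/EBP factor of myeloid cells, had 58103, 47498, 51623 and 51926 counts and was not called in any pair. The 6 NADPH oxidase subunits, which calprotectin assists, were not 2-fold apart in any of the 6 pairs (7.5% to 22.1% of all tested genes), with a median log2 ratio of FR17 to sFD17 of -0.59, beside 0.07 for all tested genes (-0.13 and 0.52 with library size alone).

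Of 11 neutrophil granule genes, 2 were at least 2-fold higher than control with TP5 (3.2% of all tested genes), 2 with sFD17 (5.32%) and 1 with FR17 (3.92%), and none was at least 2-fold lower with any peptide. Mpo (myeloperoxidase) had 38, 148, 75 and 141 counts and Elane (neutrophil elastase) 35, 91, 59 and 91 counts in control, TP5, sFD17 and FR17. Mpo was thus lowest in the control, with log2 ratios of 1.86, 1.29 and 1.40, whereas S100a8 and S100a9 had log2 ratios to control of -0.21 to 0.43.

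S100a11 (ENSMUSG00000027907) had 16983, 16080, 14254 and 16975 counts, or 1005, 917, 1080 and 739 CPM, in the control, TP5, sFD17 and FR17 libraries. FR17 was the lowest library and, with TMM scaling, sFD17 the highest. As unscaled shares of counts, S100a11 took 0.0991%, 0.0937%, 0.0917% and 0.0864% in the same order of libraries. The log2 ratio of FR17 to control was -0.44 and that of FR17 to sFD17 -0.55, or -0.09 with library size alone, and the exact test called S100a11 in no pair (unadjusted p 0.314 to 0.849). Per count of Anxa1, its annexin partner, S100a11 had 1.3, 1.04, 1.32 and 1.04 counts. The control and sFD17 shared the higher ratio, and TP5 and FR17 the lower one.

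S100a6 (ENSMUSG00000001025), or calcyclin, had 10919, 11065, 9586 and 10741 counts and 646, 631, 726 and 468 CPM. The FR17 library stood below the other three on the TMM scale, at -0.47 to control, -0.43 to TP5 and -0.63 to sFD17. With library size alone the ratio of FR17 was -0.22 to control and -0.17 to sFD17. As unscaled shares of counts, S100a6 took 0.0637%, 0.0645%, 0.0617% and 0.0547% in the control, TP5, sFD17 and FR17 libraries. The exact test did not call it in any pair (unadjusted p 0.238 to 0.948). Cacybp, which encodes its binding partner, had 442, 412, 218 and 784 counts, and was the only 1 of 5 tested partners at least 2-fold apart between FR17 and sFD17 (1.04, unadjusted p = 0.0233 in edgeR's exact test), where 22.1% of all tested genes were. The other 4, Ahnak, Myh9, Il1a and Fgf1, were not 2-fold apart in any pair, although Fgf1 reached 1.02 for FR17 against sFD17 with library size alone.

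S100a10 (ENSMUSG00000041959) had 1585, 1998, 734 and 3277 counts in the control, TP5, sFD17 and FR17 libraries, or 93.8 (95% interval 89.3 to 98.6), 114 (109 to 119), 55.6 (51.7 to 59.8) and 143 (138 to 148) CPM. The libraries stood apart beyond counting error, with sFD17 the lowest and FR17 the highest. FR17 was 2.57-fold of sFD17 (2.37 to 2.78, unadjusted p = 0.00591 and adjusted p = 0.14 in edgeR's exact test), and its log2 ratio of 1.36 was above that of 94.1% of all tested genes. The sFD17 library was 0.488-fold of TP5 (0.448 to 0.532, unadjusted p = 0.0355 and adjusted p = 0.972 in edgeR's exact test). To control, the log2 ratios were 0.28 (TP5), -0.75 (sFD17) and 0.60 (FR17), none of them called.

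The annexin A2 gene varied less than S100a10. Anxa2 had 14802, 14385, 11914 and 17948 counts, with log2 ratios to control of -0.10, 0.04 and -0.16. Its log2 ratio of FR17 to sFD17 was -0.21 but turned to 0.25 with library size alone, where Anxa2 was lowest in sFD17 and highest in FR17 as S100a10 was. Within the libraries, S100a10 had 0.107 (0.102 to 0.113) counts per Anxa2 count in the control, 0.139 (0.132 to 0.146) with TP5, 0.0616 (0.0571 to 0.0664) with sFD17 and 0.183 (0.176 to 0.190) with FR17. The 4 intervals did not overlap, and none of the ratios depends on the scaling between libraries. The same order was found against other members of the family in the same libraries, ratios added after the values were seen: per S100a11 count, the neighbouring gene, S100a10 had 0.0933, 0.124, 0.0515 and 0.193 counts, and per S100a6 count 0.145, 0.181, 0.0766 and 0.305.

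Of 10 tested annexins, 1 was at least 2-fold higher (11.3% of all tested genes) and 1 lower (10.8%) in FR17 than in sFD17. With library size alone 2 were higher (25.7%) and 0 lower (4.78%), with Anxa5 added at 1.27, or 0.81 with TMM scaling. Anxa4, a membrane-binding annexin, had 916, 960, 340 and 1322 counts, with log2 ratios of -1.07 for sFD17 to control and 1.16 for FR17 to sFD17 (unadjusted p = 0.0212 and 0.0128 in edgeR's exact test). It was low in sFD17 alone, as S100a10 was lowest there. Anxa11 was the lower 1, at -1.24 (-0.78 with library size alone). Anxa8, with 7 to 20 counts, was also past 2-fold against control, with TP5 (1.25) and sFD17 (1.48).

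Genes of the plasminogen system, to which S100A10 is tied as a receptor, did not share 1 order of the libraries. Serpinb2, which encodes a plasminogen activator inhibitor, had 2108, 1404, 509 and 1502 counts in control, TP5, sFD17 and FR17. It was lowest in sFD17, as S100a10 was, but highest in the control, with a log2 ratio of -1.69 for sFD17 to control (unadjusted p = 0.000518, edgeR's exact test). Plaur, the urokinase receptor, was highest in sFD17, with FR17 to sFD17 at -1.21, or -0.75 with library size alone. The exact test called Plaur in this pair with TMM scaling only. Plau, which encodes urokinase, had 577 to 975 counts and was not 2-fold apart in any pair. Plg, the plasminogen gene, had 0 counts in 3 libraries and 2 in FR17.

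**Figure D4:**
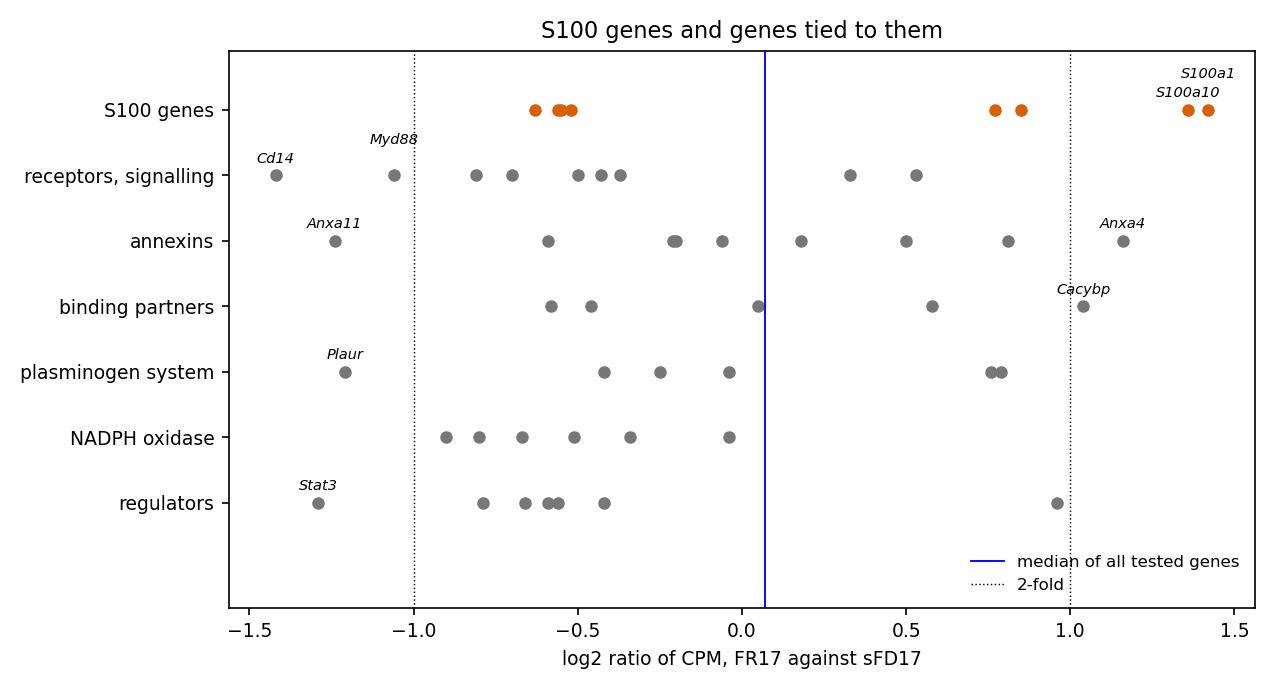
Log2 ratio of CPM, FR17 against sFD17, for 8 S100 genes (orange; S100a4 left out) and for 6 lists of genes tied to them (grey; genes with at least 10 counts in the control library and reported here), 1 point per gene, with the median of all tested genes (0.07) and 2-fold marked. S100a1 and S100a10 lie past 2-fold at 1.42 and 1.36, and the 4 abundant S100 genes lie between -0.63 and -0.52. With library size alone these 4 shrink to between -0.17 and -0.06, and the labelled genes on the left all lie within 2-fold. Of the grey genes, the unlabelled Cebpa (1.42), Anxa5 (1.27), Plat (1.23), Serpinb2 (1.22) and Fgf1 (1.02) then pass 2-fold on the right.

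S100a1 (ENSMUSG00000044080) had 350, 321, 144 and 676 counts in the control, TP5, sFD17 and FR17 libraries, or 20.7 (18.6 to 23.0), 18.3 (16.4 to 20.4), 10.9 (9.2 to 12.8) and 29.4 (27.3 to 31.8) CPM. The control and TP5 overlapped within counting error, sFD17 was lower and FR17 higher. FR17 was 2.70-fold of sFD17 (2.25 to 3.25), with an unadjusted p of 0.00318 and an adjusted p of 0.0966 in edgeR's exact test, and its log2 ratio of 1.42 exceeded that of 94.7% of all tested genes. The sFD17 library was 0.527-fold of control (0.431 to 0.641, unadjusted p = 0.0565, edgeR's exact test), which did not pass 2-fold, but its log2 ratio of -0.92 became -1.13 with library size alone.

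S100a13 (ENSMUSG00000042312), head to head with S100a1, had 456, 473, 269 and 799 counts and 27.0, 27.0, 20.4 and 34.8 CPM. It ordered the libraries as S100a1 did, with sFD17 lowest and FR17 highest, but over a smaller range. FR17 was 1.71-fold of sFD17 (1.49 to 1.97, unadjusted p = 0.0872, edgeR's exact test), and TP5 was 0.999-fold of control (0.876 to 1.14). Per count of S100a13, S100a1 had 0.768 (0.666 to 0.884), 0.679 (0.587 to 0.784), 0.535 (0.434 to 0.658) and 0.846 (0.763 to 0.938) counts in the 4 libraries, a ratio added after the values were seen. The sFD17 interval lay below those of the control and FR17 and overlapped that of TP5.

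S100a16 (ENSMUSG00000074457), a widely expressed family member, had only 65, 44, 41 and 131 counts, or 3.85 (2.97 to 4.90), 2.51 (1.82 to 3.37), 3.11 (2.23 to 4.21) and 5.71 (4.77 to 6.77) CPM. FR17 was the highest library, its interval overlapped that of the control, and the intervals of the other three overlapped each other. As ratios, FR17 was 1.48-fold of control (1.09 to 2.03) and TP5 0.652-fold of control (0.434 to 0.97), both beyond counting error. The intervals of sFD17 to control (0.532 to 1.21) and to TP5 (0.789 to 1.94) did not exclude equality. FR17 was 2.28-fold of TP5 (1.61 to 3.28, unadjusted p = 0.0892 in edgeR's exact test) and 1.84-fold of sFD17 (1.28 to 2.68), and the exact test called neither.

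S100a4 (ENSMUSG00000001020), also called metastasin or fibroblast-specific protein, had 4, 10, 4 and 5 counts, or 0.237 (0.0645 to 0.606), 0.570 (0.273 to 1.05), 0.303 (0.0826 to 0.776) and 0.218 (0.0707 to 0.508) CPM. The intervals of the 4 libraries overlapped, and at this depth no difference was detectable. Its log2 ratio of -1.05 for FR17 against TP5 rests on 5 and 10 counts and on a ratio of 0.382 with an interval of 0.102 to 1.23. Per S100a6 count, its neighbour, S100a4 had 0.000366 to 0.000904 counts. In the GENCODE M21 annotation, 302 of the 584 exon bases of S100a4 (51.7%) also belong to Gm42674 on the same strand, a gene listed at 0 counts in every library. How reads over more than 1 gene were counted is not given in the sources used here, and the part of this overlap in the low counts of S100a4 was not tested, so its level is uncertain. None of the other 8 genes shared exon bases with another gene of that annotation on either strand.

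The remaining S100 genes were near the detection limit. Of 8 further family members in the table, 2 were tested: S100a3 (4, 5, 5 and 16 counts) and S100a7a (9, 5, 13 and 9 counts), neither called by the exact test in any pair. On these few counts, S100a3 was past 2-fold for FR17 against control (1.21) and against TP5 (1.02), and S100a7a for FR17 against sFD17 (-1.12) and sFD17 against TP5 (1.46). S100a2, S100a5, S100a14, S100b and S100g had 0 to 8 counts in each library, and S100z had 0 in all, against the limit of 3 counts (0.131 to 0.227 CPM).

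Sums of markers of other cell types differed between the libraries as well, some of them in the order of the scarcer set and some not. The 13 macrophage markers summed to 7265, 4886, 2768 and 8499 CPM in control, TP5, sFD17 and FR17, with all 13 higher in FR17 than in sFD17 and none at 0. This sum was lowest in sFD17 and highest in FR17, as were S100a10, S100a13 and S100a1. TP5 lay below the control for macrophage markers and, within counting error, for S100a1 (log2 ratio -0.18). It was level with the control for S100a13 and above it for S100a10. The 16 neutrophil markers summed to 23904, 26772, 31925 and 20068 CPM, with 1 of 16 higher in FR17 than in sFD17 and none at 0, with the same highest and lowest library as the abundant set on this scale; as unscaled shares of counts they were 2.36%, 2.74%, 2.71% and 2.35%. Of the 14 marker lists, 8 had their highest sum in FR17: besides the macrophage markers these were 8 T cell (38.8 to 108 CPM), 7 NK cell (25.8 to 104 CPM), 7 basophil, mast cell and eosinophil (15.5 to 42.5 CPM), 7 endothelium (120 to 196 CPM), 7 fibroblast (142 to 258 CPM), 4 red blood cell (9.86 to 32.0 CPM) and 5 platelet markers (29.6 to 141 CPM, with Gp1bb at 0 in at least 1 library). In contrast, 10 lung epithelium markers (665, 988, 1337 and 796 CPM) were highest in sFD17, and 6 dendritic cell markers (127, 238, 130 and 166 CPM) and 6 B cell markers (353, 508, 404 and 422 CPM) were highest in TP5. The 8 monocyte markers had no order that held without scaling: their sum of 5172, 4975, 5537 and 4508 CPM was highest in sFD17, but as unscaled shares of counts (0.510%, 0.508%, 0.470% and 0.527%) it was lowest there, and 5 of 8 were higher in FR17 than in sFD17. The part of these cell types in the S100 values was not tested. Over the 14 marker lists, the ratio of FR17 to sFD17 ran from 0.535 for melanoma, where Mlana, Tyr, Dct and Tyrp1 were at 0 in at least 1 library, to 4.77 for platelets. Of the 5 platelet markers, however, only 3 were higher in FR17, and the median log2 ratio of the 4 tested was 0.15.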

How the data were processed

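The authors sequenced RNA of the sorted lung MDSCs after strand-specific (NEBNext Ultra Directional) library preparation. They deposited raw counts of reads per gene, without normalization. The submitters' processing notes name HISAT2 2.0.5, StringTie 1.3.3b, featureCounts 1.5.0-p3, edgeR 3.18.1 and the build GRCm38.p6. The strand setting and the treatment of reads over several genes are not given in the sources used here. Columns were matched to samples by group name. A symbol listed on more than 1 row (100 symbols) was read from its most counted row.

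Software was Python 3.11.15 (pandas 2.3.3, numpy 2.4.6, scipy 1.17.1, matplotlib 3.10.9) and R 4.3.3 (edgeR 4.0.16, DESeq2 1.42.0). Tests took the 16369 genes that reached 10 counts in any library. Log2 ratios are differences of edgeR's TMM-scaled log2 CPM (prior count 2). For each pair of libraries, a gene was called when at least 2-fold apart or, following the study's threshold, at an unadjusted p under 0.05 in edgeR's exact test (two-sided). Its dispersion was trended over the 4 libraries as 1 group (biological coefficient of variation 0.212 to 0.449), since 1 library per group leaves no replicate error, and differences between treatments enter that dispersion. The quasi-likelihood test could not be fitted with 1 library per group. The scripts were tested on simulated data. Levels between genes were compared per kilobase of the deposited gene length, which equals the exon bases in GENCODE M21. Intervals of shares are Clopper-Pearson intervals, and those of ratios are exact conditional binomial intervals, both at 95%.

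The 9 genes, the gene lists (179 symbols, 178 of them in the table, 14 lists for cell type markers) and the tests were chosen with earlier results of these data known. Named were the 9 genes, the sorting markers, the ratio partners, in each list up to 3 genes with the largest log2 ratio to control among those past 2-fold with at least 50 counts in either library, and for S100a8, S100a9, S100a4 and S100a6 the 3 genes nearest in the 3 log2 ratios to control; genes named outside this rule are said to be picked after their values were seen. Where the rule names genes of the marker lists, only the sums of those lists are given, and some genes that the rule selects are not reported here. Alternatives were DESeq2 size factors, library size alone, no filter or at least 10 counts in every library, a prior count of 0.5, a fixed coefficient of variation of 0.2 or 0.4, Benjamini-Hochberg adjustment, DESeq2's Wald test, a total without the 10 most abundant genes, and the median without S100a8 and S100a9. Library size alone was applied to the genes of the other lists after their values were seen.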

Additional observations from a re-analysis of the deposited data

How the results depend on the processing

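Each group is 1 library, so that no call has a replicate error behind it, and counting error alone limits S100a4 and S100a16. No paired analysis was possible because each group has 1 library. DESeq2 size factors turned 0 of the 54 log2 ratios of the S100 genes, and library size alone turned 11, all of S100a4, S100a6, S100a8, S100a9 and S100a11. With library size alone the number of S100 genes at least 2-fold apart was 1 for TP5 and 1 for sFD17 against control (0 each with TMM), 4 for FR17 against sFD17 (2 with TMM), 1 for FR17 against TP5 (2) and 2 for sFD17 against TP5 (1), and the exact test called 1 for sFD17 against control (0). A prior count of 0.5 gave 1 gene at least 2-fold apart for TP5 against control. For FR17 against TP5, no filter and at least 10 counts in every library each gave 1, and for sFD17 against TP5 DESeq2 size factors gave 0. The exact test called 0 genes for FR17 against sFD17 and 0 for sFD17 against TP5 both with a coefficient of variation of 0.4 and after Benjamini-Hochberg adjustment (2 and 1 at an unadjusted p under 0.05), and DESeq2's Wald test called 0 for sFD17 against TP5. With a coefficient of 0.2 it called 1 for sFD17 against control and 1 for FR17 against TP5. The cause of these changes was not tested. The other counts of S100 genes, 21 of 30 by fold and 40 of 48 by the exact test, stayed within 1.5 times the count reported.

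Over all genes, the number at least 2-fold apart was 1339 (503 with at least 10 counts in every library to 3097 with no filter) for TP5 against control, 1930 (914 to 4212) for sFD17 against control, 1227 (448 to 2891) for FR17 against control, 3613 (2316 to 5654) for FR17 against sFD17, 1624 (714 to 3175) for FR17 against TP5 and 2026 (980 to 3762) for sFD17 against TP5. The exact test called 324 (5 after Benjamini-Hochberg adjustment to 884 with a coefficient of 0.2), 791 (160 to 1519), 307 (0 to 983), 2073 (370 to 3550), 601 (15 to 1317) and 760 (84 to 1607) in the same order. With library size alone, the shares of all tested genes at least 2-fold higher and lower were 3.54% and 9.37% for sFD17 against control (5.32% higher with TMM), 6.67% and 1.93% for FR17 against control (3.92% higher with TMM), 9.77% and 1.92% for FR17 against TP5 (7.04% and 2.88%) and 4.33% and 10.1% for sFD17 against TP5 (5.64% lower with TMM). The 10 most abundant genes include S100a8 and S100a9. Without these 10 genes, the other 7 S100 genes took 0.190%, 0.187%, 0.173% and 0.178% of the remaining counts in control, TP5, sFD17 and FR17, so that sFD17, highest for all 9 genes, was lowest. The median log2 ratio of the S100 genes changed sign with at least 10 counts in every library, where S100a4 is left out, for sFD17 against control (-0.10), FR17 against control (0.13), FR17 against sFD17 (0.13) and FR17 against TP5 (0.09).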

Other observations

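Among 9792 other genes with at least 50 counts in every library, Vps37c and Uba1 were among those nearest to S100a8 in the 3 log2 ratios to control, at Euclidean distances of 0.038 and 0.039. Nearest to S100a9 were Dvl3, Timm29 and Hcls1 (0.028 to 0.033), and nearest to S100a6 were Fbxo11, Tmx4 and Arid4a (0.013 to 0.027). None of these genes belongs to the S100 family or to a list used here. For S100a4, whose ratios rest on 4 to 10 counts, Abca6, Zc3h12c and Mbnl3 were nearest, at 0.106 to 0.274. Likeness over 4 libraries of 1 value each is a description.

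For the genes of the scarcer set the same measure was added after their values were seen. Sdf2l1, an endoplasmic reticulum chaperone component, and Uqcrb, a subunit of mitochondrial complex III, were nearest to S100a10 (0.078 and 0.079), followed by Mrpl42, of the mitochondrial ribosome (0.13). Prdx4, the peroxiredoxin of the endoplasmic reticulum, was nearest to S100a1 (0.054), followed by Ppp1r14b (0.108) and Scimp (0.119).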
